A study of Mus musculus with 11 samples.

Results

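The 9 genes described here, Cd79a, Cd79b, Ms4a1, Cd22, Cr2, Fcer2a, Blk, Pax5 and Cxcr5, are markers of B lymphocytes. They were chosen by name, as the transcript clusters whose annotated gene symbol is exactly one of these, and all 9 were measured among the 19944 genes tested, each by 1 transcript cluster. Rectal mucosa of 11 mice aged 10 weeks was profiled on Mouse Gene 1.0 ST arrays (Affymetrix), with a separate array for every animal. The mutant line, called α6ΔIEC-TAM in the labels, is meant to lose Itga6, the gene of integrin α6, in intestinal epithelial cells once tamoxifen is given. The groups were mutant mice given tamoxifen (mutant tamoxifen, n = 4, 1 of them male), mutant mice given NaCl (mutant NaCl, n = 4, 1 of them male), and wild-type mice given tamoxifen (control tamoxifen, n = 3, 2 of them male). Gavage, with tamoxifen at 10 mg per day, started at 8 weeks of age and ran over 5 days, and tissue was taken 15 days after its first day. The promoter that drives the deletion in this line is not given in the sources used here.

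Levels are on the log2 scale, so a difference of 1 is a doubling of signal, and array medians lay between 7.29 and 7.35. Correlations between arrays over all transcript clusters were 0.992 to 0.996 within groups and 0.984 to 0.996 between groups. Itga6 averaged 11.82 ± 0.0782 in mutant tamoxifen (SD, n = 4), 11.41 ± 0.0937 in mutant NaCl (SD, n = 4) and 11.39 ± 0.204 in control tamoxifen (SD, n = 3). It was higher, not lower, in the arrays labelled mutant tamoxifen (limma adjusted p = 0.0053 against mutant NaCl and 0.00949 against control tamoxifen, the last not past the threshold over female arrays alone or without mutant tamoxifen replicate 3, at 0.30 to 0.40 on the log2 scale). Where its probes sit relative to the deletion was not analysed here, so Itga6 does not check the labels, and groups are named by their labels throughout. The epithelial list (Epcam, Cdh1 and 6 others) had mean levels of 12.21 to 12.41 in mutant tamoxifen, 12.07 to 12.14 in mutant NaCl and 12.10 to 12.18 in control tamoxifen. Smooth muscle markers were at 11.55 to 11.68, 11.98 to 12.26 and 12.12 to 12.24 in the same order, so the samples held muscle as well as epithelium.

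B cells recognise antigen through a surface immunoglobulin that signals through the paired chains CD79A and CD79B. In the large intestine, naive B cells lie mainly in lymphoid follicles of the wall, such as isolated lymphoid follicles and colonic patches. There, follicular dendritic cells hold antigen and the chemokine CXCL13 draws in B cells that carry its receptor CXCR5. Plasma cells, which secrete IgA, lie scattered through the lamina propria and have shut down most of the naive B cell programme. These array values come from whole pieces of tissue, so fewer B cells and less RNA per B cell cannot be told apart. Follicles were not counted in the data used here, and whether the arrays differ in follicle content was not tested.

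All 9 genes varied widely from mouse to mouse, moved together, and did not pass the test between any pair of groups. Mutant NaCl replicate 1 had the highest level of all 9 genes, and mutant NaCl replicate 3 ranked second for all 9. At the low end were mutant NaCl replicate 4, lowest for 4 genes, control tamoxifen replicate 2, lowest for 3, and control tamoxifen replicate 1, lowest for 2. The mean level of the 9 genes was 7.78, 7.65, 7.56 and 7.20 in mutant tamoxifen, 8.95, 7.74, 8.08 and 6.80 in mutant NaCl, and 6.83, 6.83 and 7.69 in control tamoxifen. The highest and the lowest of the 11 arrays were thus both mutant NaCl, and the 4 mutant tamoxifen arrays lay between them. The 3 groups overlapped in every one of the 9 genes.

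**Figure D1:**
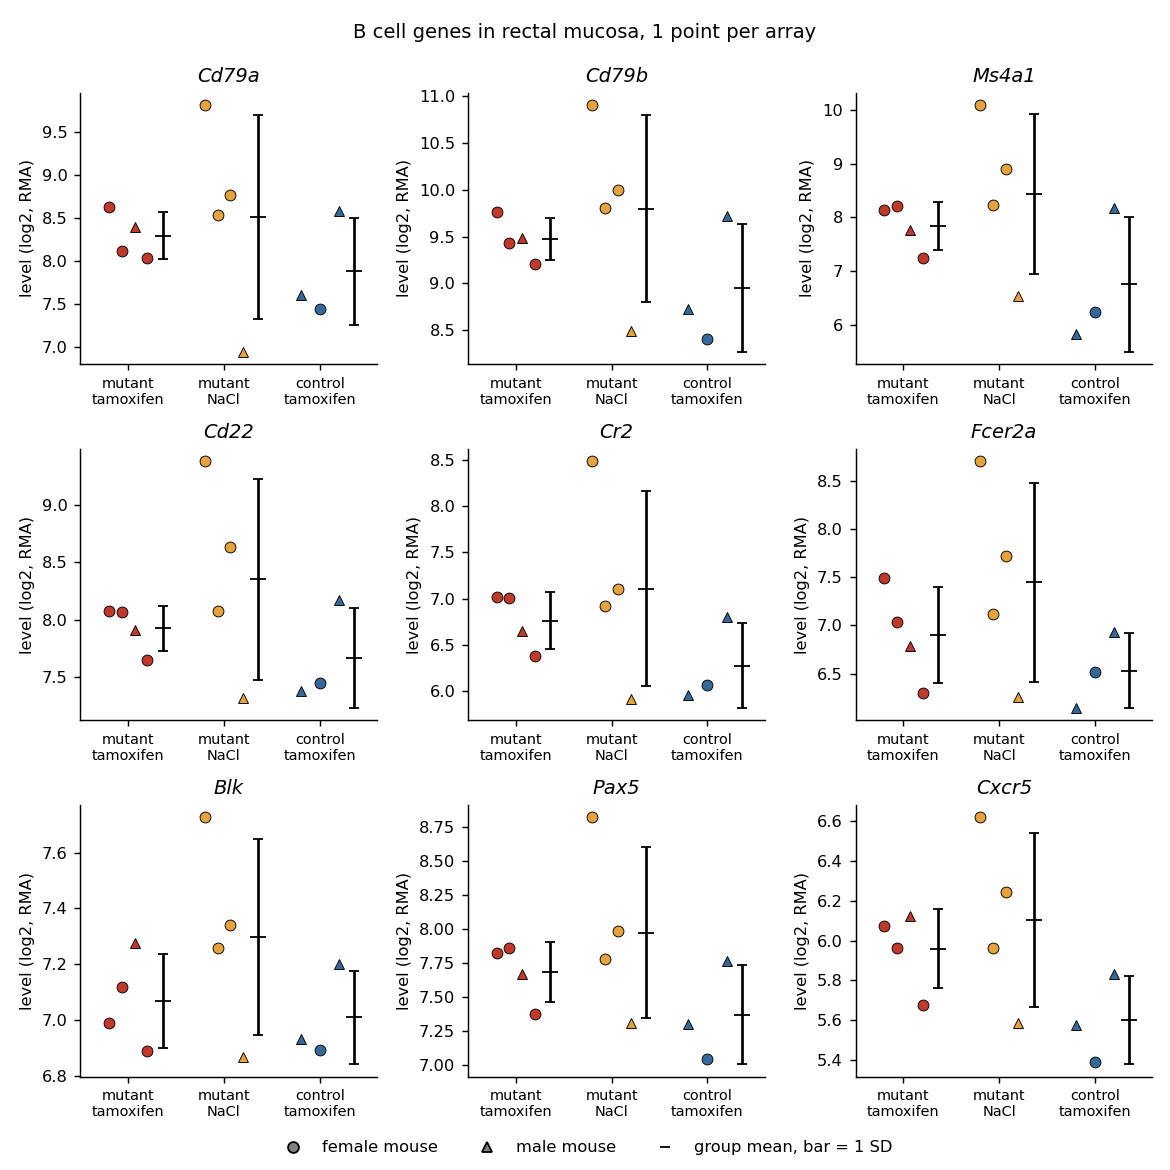
Levels of the 9 B cell genes (log2) by group, with 1 point per array, circles for female and triangles for male mice, and the group mean with 1 SD beside the points. In each panel the mutant NaCl arrays span the widest range, from 6.53 to 10.09 for Ms4a1, and the groups overlap.

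Promoter windows are shown for 3 members, genes of the antigen receptor (Cd79a), its inhibitory co-receptor (Cd22) and its complement co-receptor (Cr2). All 36 pairs of members varied together over the arrays, so this does not set these 3 apart. Shared control of the promoters was not tested. RefSeq promoter windows (GRCm38.p6) were found for 5 of the 9 members, 7 windows in all. The 250 bases before each window's own start site were searched on both strands. The motifs were GAGGAA, the core bound by PU.1 and Spi-B, CCCNNGGG, the core bound by EBF1, and CAGGTG, an E-box. The Cd79a window ends just before the annotated gene, which begins at 24897497. That of Cd22 lies inside its annotated gene (chr7:30865404-30880342). The Cr2 window reaches into its gene (chr1:195136811-195176880), and its marked E-box lies in that part. These motifs do not overlap one another in the windows shown, and capitals mark the matches. The windows lie at chr7:24897247-24897496 on the plus strand, chr7:30879029-30879278 on the minus strand and chr1:195176720-195176969 on the minus strand, each printed 5′ to 3′ on the gene's strand.
Cd79a: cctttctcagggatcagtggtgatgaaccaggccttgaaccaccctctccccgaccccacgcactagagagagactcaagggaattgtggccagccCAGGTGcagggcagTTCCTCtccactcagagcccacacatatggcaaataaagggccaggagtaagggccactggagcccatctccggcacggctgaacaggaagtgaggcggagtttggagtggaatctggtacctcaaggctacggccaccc
Cd22: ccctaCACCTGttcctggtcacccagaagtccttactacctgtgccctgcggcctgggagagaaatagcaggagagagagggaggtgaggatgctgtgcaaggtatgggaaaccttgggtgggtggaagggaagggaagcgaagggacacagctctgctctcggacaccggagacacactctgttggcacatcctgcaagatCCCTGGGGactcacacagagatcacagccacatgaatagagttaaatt
Cr2: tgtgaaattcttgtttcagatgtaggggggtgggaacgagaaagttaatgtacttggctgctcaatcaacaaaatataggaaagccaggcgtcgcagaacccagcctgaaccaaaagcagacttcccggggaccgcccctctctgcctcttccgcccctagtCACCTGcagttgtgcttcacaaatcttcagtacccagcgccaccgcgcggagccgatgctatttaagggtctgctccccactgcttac
Cd79a holds the E-box at 154 to 149 bases before the start and GAGGAA, on the opposite strand, at 140 to 135. Cd22 holds CCCNNGGG at 48 to 41 bases before the start, and an E-box on the opposite strand far upstream, at 245 to 240. Cr2 holds an E-box on the opposite strand at 88 to 83 bases before the start. Of 32851 windows of this length in the table, 23.3% hold GAGGAA, 11.8% CCCNNGGG and 17.2% CAGGTG. Among the 7 member windows the numbers were 1, 1 and 4, the fourth E-box window being 1 of 3 for Fcer2a, and the Pax5 window held none of these motifs. A match is a description of the letters and not a test of binding.

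Cd79a (Entrez Gene 12518) and Cd79b (Entrez Gene 15985) encode the signalling chains of the B cell receptor. Cd79a read 8.63, 8.12, 8.40 and 8.04 in mutant tamoxifen, 9.82, 8.54, 8.77 and 6.94 in mutant NaCl, and 7.61, 7.44 and 8.59 in control tamoxifen. Its group means were 8.30 ± 0.27 in mutant tamoxifen (SD, n = 4), 8.52 ± 1.19 in mutant NaCl (SD, n = 4) and 7.88 ± 0.618 in control tamoxifen (SD, n = 3). Mutant NaCl alone spanned 7.34-fold, against 1.51-fold in mutant tamoxifen and 2.21-fold in control tamoxifen. Cd79b read 9.76, 9.43, 9.49 and 9.21 in mutant tamoxifen, 10.91, 9.81, 9.998 and 8.49 in mutant NaCl, and 8.73, 8.41 and 9.72 in control tamoxifen. Its order of arrays was close to that of Cd79a, with mutant NaCl replicate 1 far above the rest (Pearson r = 0.98 over 11 arrays, the highest of the 36 pairs of members). Cd79a differed by -0.22 between mutant tamoxifen and mutant NaCl and by 0.22 between mutant tamoxifen and control tamoxifen, with limma adjusted p = 0.796 and 0.803.

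Blk (Entrez Gene 12143) encodes a Src family kinase of the B lineage that acts just below the receptor. It read 6.99, 7.12, 7.28 and 6.89 in mutant tamoxifen, 7.73, 7.26, 7.34 and 6.87 in mutant NaCl, and 6.93, 6.89 and 7.20 in control tamoxifen. Its range over all arrays, 1.81-fold, was the smallest of the 9, yet mutant NaCl replicate 1 was again the highest array. Mutant tamoxifen differed from mutant NaCl by -0.23 (SE 0.159, 95% confidence interval -0.58 to 0.12, limma adjusted p = 0.35). Without mutant NaCl replicate 4 that difference was -0.43 and passed the threshold (adjusted p = 0.034), the one array whose omission gave a call for any member.

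Ms4a1 (Entrez Gene 12482) encodes CD20, a membrane protein of mature B cells, and varied most. It read 8.14, 8.21, 7.76 and 7.25 in mutant tamoxifen, 10.09, 8.23, 8.89 and 6.53 in mutant NaCl, and 5.83, 6.24 and 8.18 in control tamoxifen. Between the highest array, mutant NaCl replicate 1, and the lowest, control tamoxifen replicate 1, the signal differed 19.2-fold. Group means were 7.84 ± 0.443 in mutant tamoxifen (SD, n = 4), 8.44 ± 1.49 in mutant NaCl (SD, n = 4) and 6.75 ± 1.26 in control tamoxifen (SD, n = 3). Mutant tamoxifen differed from mutant NaCl by -0.60 (SE 0.665, 95% confidence interval -2.06 to 0.87, limma adjusted p = 0.586). From control tamoxifen it differed by 0.81 (SE 0.766, 95% confidence interval -0.89 to 2.50, limma adjusted p = 0.476). Both intervals take in 0 and also differences of more than 2-fold in 1 direction. Control tamoxifen replicate 3 read 3.84-fold above the next array of its group and lay within the range of the mutant arrays.

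Cd22 (Entrez Gene 12483) encodes an inhibitory lectin that dampens receptor signals. It read 8.07, 8.06, 7.91 and 7.65 in mutant tamoxifen, 9.38, 8.08, 8.63 and 7.32 in mutant NaCl, and 7.38, 7.45 and 8.17 in control tamoxifen. The 4 mutant tamoxifen arrays lay within 1.34-fold of each other, and the mutant NaCl arrays spanned 4.16-fold. Cr2 (Entrez Gene 12902) encodes the complement receptor CD21, which lowers the threshold of B cell activation and is also carried by follicular dendritic cells. Cr2 read 7.02, 7.003, 6.64 and 6.38 in mutant tamoxifen, 8.49, 6.92, 7.11 and 5.91 in mutant NaCl, and 5.96, 6.06 and 6.80 in control tamoxifen. For Cr2, as for Cd22, mutant NaCl held both the highest and the lowest array. Fcer2a (Entrez Gene 14128) encodes CD23, the low-affinity receptor for IgE on follicular B cells. Fcer2a read 7.50, 7.03, 6.79 and 6.30 in mutant tamoxifen, 8.70, 7.11, 7.72 and 6.26 in mutant NaCl, and 6.15, 6.52 and 6.93 in control tamoxifen. Here the 4 mutant tamoxifen arrays were spread more, over 2.30-fold, with replicate 4 near the lowest arrays of the other groups. Against mutant NaCl the differences of mutant tamoxifen were -0.43 for Cd22, -0.35 for Cr2 and -0.55 for Fcer2a (limma adjusted p = 0.431, 0.61 and 0.39).

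Pax5 (Entrez Gene 18507) encodes the transcription factor that commits cells to the B lineage and keeps them there. It read 7.82, 7.86, 7.67 and 7.37 in mutant tamoxifen, 8.82, 7.77, 7.99 and 7.31 in mutant NaCl, and 7.30, 7.05 and 7.77 in control tamoxifen. Mutant tamoxifen replicates 1 to 3 lay close together and near mutant NaCl replicates 2 and 3. Cxcr5 (Entrez Gene 12145) encodes the receptor for CXCL13, also carried by follicular helper T cells, and had the lowest mean level of the 9. Cxcr5 read 6.07, 5.96, 6.12 and 5.68 in mutant tamoxifen, 6.62, 5.97, 6.24 and 5.59 in mutant NaCl, and 5.58, 5.39 and 5.83 in control tamoxifen. Cxcr5 had the smallest p of the members against control tamoxifen: mutant tamoxifen differed by 0.33 (SE 0.223, 95% confidence interval -0.16 to 0.83, limma adjusted p = 0.309) and mutant NaCl by 0.48 (SE 0.223, 95% confidence interval -0.02 to 0.97, limma adjusted p = 0.627). When the fit held only the mutant tamoxifen and control tamoxifen arrays, the Cxcr5 difference was 0.47 and passed (adjusted p = 0.0264). The SD of Cxcr5 was 0.199 in mutant tamoxifen, 0.437 in mutant NaCl and 0.222 in control tamoxifen.

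**Figure D2:**
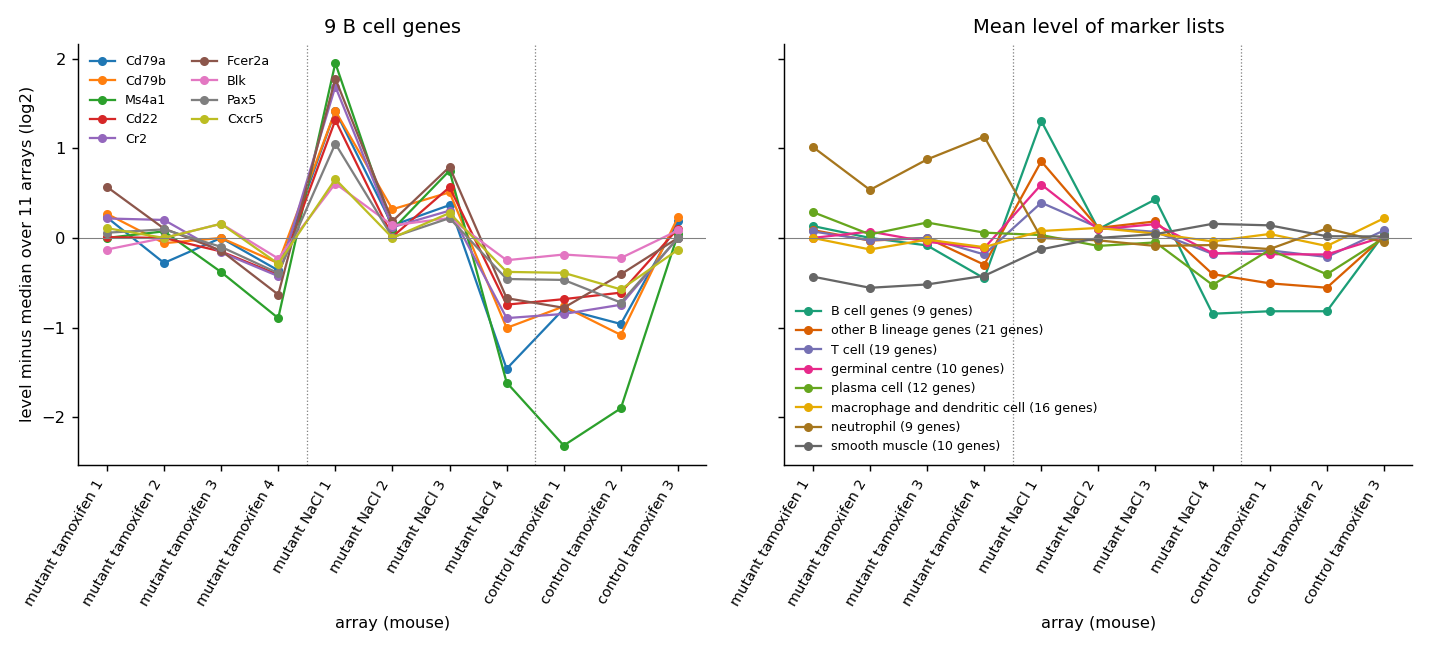
Left, each B cell gene's level minus its median over the 11 arrays (log2), with arrays (mice) on the horizontal axis and dotted lines between groups. Right, the same for the mean level of marker lists. The 9 genes peak together in mutant NaCl replicate 1 and are low in mutant NaCl replicate 4 and control tamoxifen replicates 1 and 2, while the neutrophil and smooth muscle lists set the mutant tamoxifen arrays apart from the other arrays, and mutant NaCl and control tamoxifen overlap in both lists.

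The first comparison, of mutant mice given tamoxifen or NaCl, is between mice of 1 genotype. It joins the drug itself with the deletion that the drug is meant to induce. With limma, 0 of 9 members were higher and 0 lower in mutant tamoxifen, where 12.5% of all genes were called higher and 10.7% lower. At an unadjusted p under 0.05 the count was also 0, against 34.7% of all genes in either direction. The groups overlapped in 9 of 9, where they did not overlap in 14.2% of all genes in the higher direction and 12.6% in the lower. The 9 differences were all negative, from -0.60 to -0.14 with a median of -0.33, and 53.2% of all genes had a negative difference and 46.8% a positive one. Since the 9 genes move together between mice, 9 equal signs are not 9 observations. The value depended on mutant NaCl replicate 1: without it the median was -0.01, with 4 of 9 differences positive. Without mutant NaCl replicate 4 it was -0.80, and without mutant tamoxifen replicate 4 it was -0.17. Over female arrays alone it was -0.76, with 0 members called.

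The second comparison, of mutant with wild-type mice after tamoxifen in both, concerns genotype under the same drug. Again 0 of 9 members were called in either direction (limma), and 0 at an unadjusted p under 0.05, where 12.9% of all genes were called higher and 11.8% lower and 37.3% had an unadjusted p under 0.05. The groups overlapped in 9 of 9, where 17.3% of all genes were higher and 20.1% lower without overlap. All 9 differences were positive, from 0.04 to 0.81 with a median of 0.24, and 43.4% of all genes had a positive difference and 56.6% a negative one. The sign depended on control tamoxifen replicate 2: without it 8 of 9 were negative, with a median of -0.28. Without mutant tamoxifen replicate 3, the male of that group, the median was 0.06 with 5 of 9 positive. In the fit of these 2 groups alone it was 0.47, and without the sex term 0.37. Over female arrays alone it was 0.64, without control tamoxifen replicate 3 0.44 and without mutant NaCl replicate 4 0.47, with 0 members called in each.

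The third comparison, of mutant NaCl with control tamoxifen, joins a difference in genotype with one in drug. No member was called (limma, 0 of 9, and 0 at an unadjusted p under 0.05), where 0% of all genes were called and 8.15% had an unadjusted p under 0.05. The groups overlapped in 9 of 9, where 2.82% of all genes were higher and 5.32% lower without overlap. The 9 differences were positive, from 0.27 to 1.40 with a median of 0.53, and 45.4% of all genes had a positive difference and 54.6% a negative one. Ms4a1 differed by 1.40 (SE 0.766, 95% confidence interval -0.29 to 3.09, limma adjusted p = 0.673). Without control tamoxifen replicate 2 the median was 0.10, without mutant NaCl replicate 1 0.31, and without mutant NaCl replicate 4 1.26. Without control tamoxifen replicate 3 it was 0.82. Over female arrays alone, which leave 1 control mouse assumed to vary like the others, it was 1.32. The 3 comparisons share their arrays in pairs, so their signs are linked. The sex term gave differences of male minus female from -0.68 for Ms4a1 to -0.05 for Blk, with 0 of 9 called (limma adjusted p of 0.886 or more) and 0 at an unadjusted p under 0.05. Of all genes 0.0351% were called for sex, 6.06% had an unadjusted p under 0.05, 45.4% had a negative difference and 54.6% a positive one. No other batch is given in the labels.

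**Figure D3:**
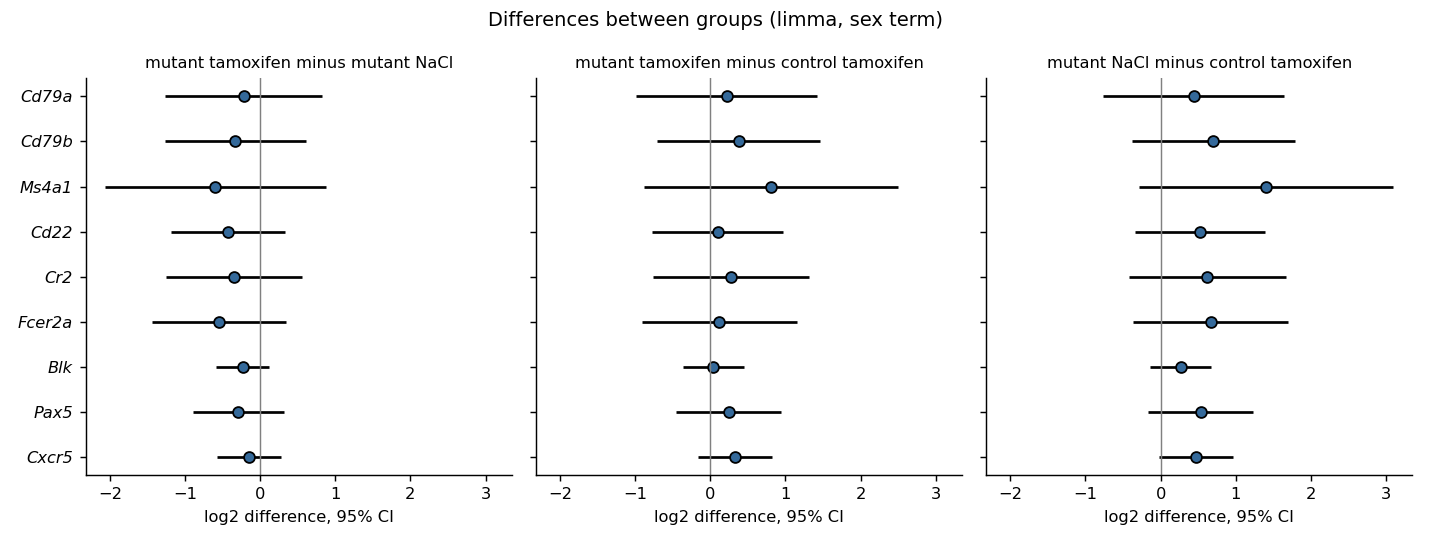
Differences between groups for each B cell gene (log2), as points with 95% confidence intervals from limma with a sex term. Every interval crosses 0, and those of Ms4a1 are the widest, from -0.29 to 3.09 for mutant NaCl minus control tamoxifen.

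The 9 genes were spread widely between mice of 1 group. The residual SD, the spread that remains after group and sex are fitted, was 1.16 for Ms4a1, and only 18 of the 19944 genes had a larger one. It was 0.821 for Cd79a, 0.738 for Cd79b, 0.711 for Cr2 and 0.703 for Fcer2a, with 64 to 107 genes above them. Cd22 (0.591), Pax5 (0.471), Cxcr5 (0.334) and Blk (0.268) followed, and for Blk 3.71% of genes were more variable. The median over all genes was 0.084, and that of the 9 members 0.703. For each of the 9 genes the SD was largest in mutant NaCl, for example 1.06 for Cr2, against 0.309 in mutant tamoxifen and 0.463 in control tamoxifen. Differences in spread between groups were not tested.

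**Figure D4:**
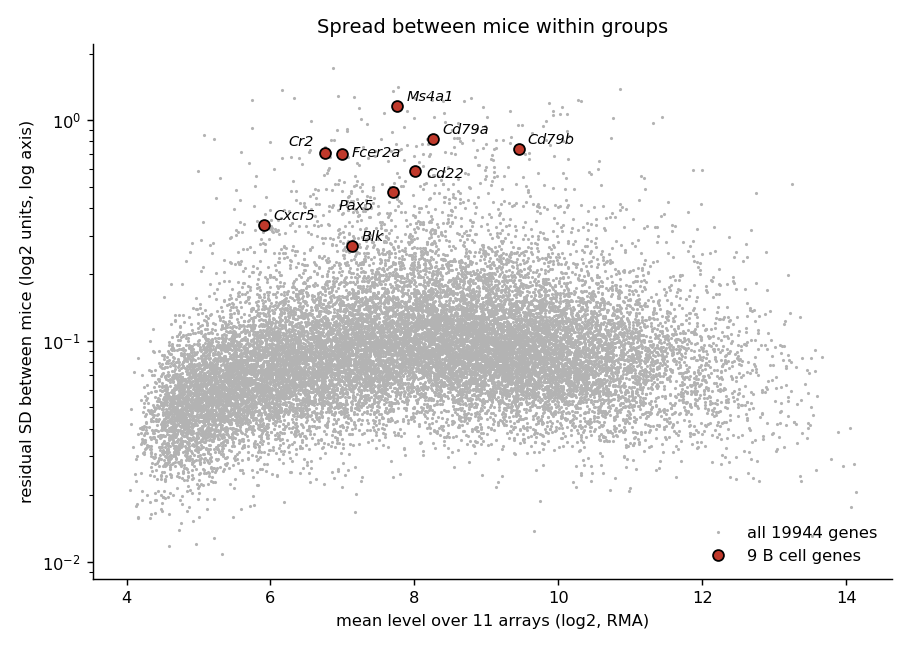
Residual SD between mice after group and sex (log2 units, log axis) against mean level over 11 arrays (log2), with grey points for all 19944 genes and red points for the 9 B cell genes. The members lie at middling levels, from 5.91 to 9.45, and near the top of the spread at those levels.

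Over the 11 arrays the 36 pairs of members had Pearson correlations of 0.87 (Fcer2a with Blk) to 0.98, with a median of 0.94, and Spearman correlations of 0.76 to 0.97. After group means were taken off, the median was still 0.94, so the shared variation lay within groups. Without mutant NaCl replicates 1 and 4, the 2 arrays farthest from the median, it was 0.90, with a range of 0.65 to 0.99. These values describe 1 set of arrays, which share their tissue pieces and normalisation. The genes differed in how far they moved: per unit of the other members' mean, Ms4a1 moved 2.10, Cd79a 1.17, Pax5 0.70 and Blk 0.35 on the log2 scale.

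The genes most like the 9 were ranked by Pearson correlation with the members' mean level over the 11 arrays, with immunoglobulin and T cell receptor segments and predicted genes left out. Of 19935 other genes, 223 (1.12%) had a correlation over 0.8 and 37 over 0.95. The first 12 were Ikzf3, Fcmr, Ptprcap, Spib, Clu, Btla, H2-Eb2, Ikzf1, Tespa1, Siglecg, Fcrla and Ppp1r16b, with correlations of 0.973 to 0.988, and of 0.932 to 0.980 without mutant NaCl replicates 1 and 4. Ikzf3 encodes Aiolos, a zinc finger factor of lymphocytes, and read 8.13, 8.21, 8.15 and 7.68 in mutant tamoxifen, 9.44, 8.37, 8.62 and 7.30 in mutant NaCl, and 7.48, 7.16 and 8.19 in control tamoxifen. Fcmr, which encodes the Fc receptor for IgM, read 8.31, 8.10, 7.90 and 7.78 in mutant tamoxifen, 9.81, 8.15, 8.59 and 7.31 in mutant NaCl, and 6.95, 7.05 and 8.22 in control tamoxifen. Both repeat the order of the members at the top, with mutant NaCl replicate 1 highest and replicate 3 next. Spib encodes an Ets family factor of B cells, M cells and plasmacytoid dendritic cells, and read 7.86, 7.75, 7.63 and 7.35 in mutant tamoxifen, 9.40, 8.09, 8.40 and 6.91 in mutant NaCl, and 6.72, 6.88 and 8.21 in control tamoxifen. Clu encodes clusterin, which follicular dendritic cells make in quantity and other cells also make, and read 9.83, 9.92, 9.65 and 9.55 in mutant tamoxifen, 11.03, 9.97, 10.17 and 9.30 in mutant NaCl, and 9.28, 9.15 and 9.93 in control tamoxifen. None of the 12 passed the test in any of the 3 comparisons, where 23.2%, 24.6% and 0% of all genes did. The 12 were picked for following members that did not pass, so this is not a separate result.

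Genes of the wider B lineage were read next. Of 21 other B lineage surface proteins and factors measured, 16 had a correlation over 0.8 with the members' mean, among them Tnfrsf13c, the receptor for the survival factor BAFF, and the tetraspanin gene Cd37. Tnfrsf13c read 9.09, 9.02, 9.04 and 8.81 in mutant tamoxifen, 10.42, 9.30, 9.48 and 8.48 in mutant NaCl, and 8.64, 8.45 and 9.44 in control tamoxifen, an order like that of the 9 genes. Against mutant NaCl, Ciita, the master regulator of MHC class II (-0.87, limma adjusted p = 0.00987), and the B lineage factor Ebf1 (-0.41, 0.0168) were lower in mutant tamoxifen. Ralgps2 was higher (0.25, 0.0262). Neither Ciita (-0.06, adjusted p = 0.881) nor Ebf1 (-0.26, 0.144) was called in mutant tamoxifen against control tamoxifen. Ciita read 8.36, 8.17, 8.02 and 7.34 in mutant tamoxifen, 8.99, 8.97, 8.64 and 8.79 in mutant NaCl, and 7.90, 7.92 and 8.35 in control tamoxifen. With 3 of 21 called where 23.2% of all genes were, the list's share was below that of all genes, and Ciita and Ebf1 had correlations of only 0.56 and 0.33 with the members. The Ebf1 call against mutant NaCl was lost over female arrays alone and without mutant tamoxifen replicate 3, at differences of -0.35 to -0.32 (adjusted p = 0.0683 to 0.0783). The Ralgps2 call against mutant NaCl was lost over female arrays alone and without mutant tamoxifen replicate 2 or 3 or 4 or mutant NaCl replicate 2 or 4, at differences of 0.19 to 0.25 (adjusted p = 0.0594 to 0.136). Against control tamoxifen 2 of 21 rose, Ralgps2 (0.35, adjusted p = 0.011) and Ly6d (1.69, 0.0235), where 24.6% of all genes were called. The Ralgps2 call against control tamoxifen was lost over female arrays alone and without mutant tamoxifen replicate 3 or control tamoxifen replicate 2, at differences of 0.29 to 0.34 (adjusted p = 0.0723 to 0.103). The Ly6d call against control tamoxifen was lost over female arrays alone, in the fit of those groups alone, with robust moderation and without mutant tamoxifen replicate 3 or control tamoxifen replicate 1, at differences of 0.64 to 1.69 (adjusted p = 0.0523 to 0.473).

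Genes of B cell receptor signalling followed the members in part. Of 17 measured, 8 had a correlation over 0.8, including the kinase gene Btk (0.94), the phospholipase gene Plcg2 (0.93) and the adaptor gene Bank1 (0.96). Against control tamoxifen 4 of 17 were called in mutant tamoxifen, 3 higher and 1 lower, a share close to the 24.6% of all genes called there (12.9% higher and 11.8% lower). Cd72, an inhibitory receptor of B cells, read 10.20, 10.30, 10.56 and 9.999 in mutant tamoxifen, 10.19, 9.49, 9.77 and 9.52 in mutant NaCl, and 8.56, 8.68 and 9.40 in control tamoxifen. It was higher in mutant tamoxifen than in control tamoxifen (difference 1.44, limma adjusted p = 0.00197), and those groups did not overlap, as was so for 17.3% of all genes in that direction. Bcl10 (0.35, 0.00273) and the kinase gene Syk (0.56, 0.0373) also rose, and the kinase gene Prkcb fell (-0.39, 0.000791). The Syk call against control tamoxifen was lost without mutant tamoxifen replicate 1 or 3 or control tamoxifen replicate 1 or 2, at differences of 0.36 to 0.55 (adjusted p = 0.0679 to 0.292). The Bcl10 call against control tamoxifen was lost over female arrays alone, at a difference of 0.29 (adjusted p = 0.099). Bcl10, Syk and Prkcb are used by many other cell types. Against mutant NaCl, Bcl10 rose (0.24, 0.00838) and Prkcb fell (-0.47, 0.000109), 2 of 17 where 23.2% of all genes were called.

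**Figure D5:**
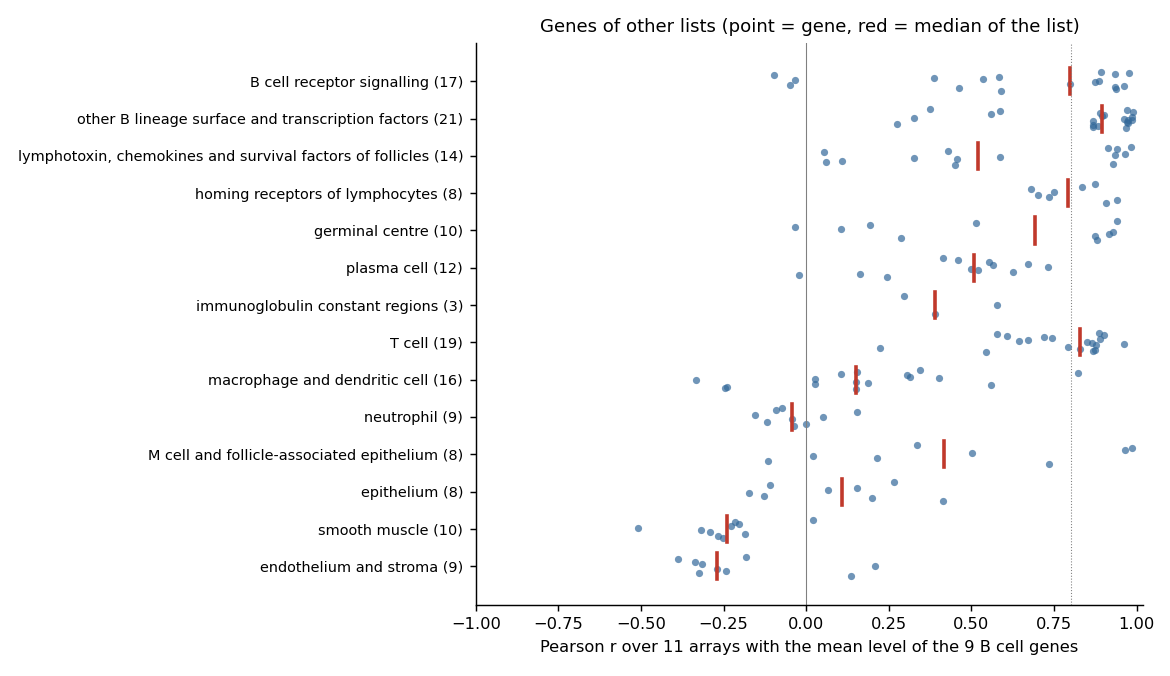
Pearson correlation over 11 arrays of each gene of other lists with the mean level of the 9 B cell genes, 1 point per gene, with list medians in red and a dotted line at 0.8. B lineage and T cell lists have medians of 0.89 and 0.83, and neutrophil, smooth muscle and stromal lists lie near or below 0.

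Genes that build and hold lymphoid follicles were read in the same arrays. Of 14 signals and survival factors, 6 had a correlation over 0.8, among them Ltb (0.93), a chain of lymphotoxin, the chemokine genes Ccl19 (0.94) and Ccl20 (0.97), and Glycam1 (0.94), a ligand on high endothelial venules. Cxcl13, the ligand of CXCR5, correlated less (0.59) and read 11.68, 11.68, 11.87 and 11.90 in mutant tamoxifen, 12.05, 11.41, 11.96 and 11.91 in mutant NaCl, and 10.23, 10.42 and 11.59 in control tamoxifen. It was low in control tamoxifen replicates 1 and 2 alone, and higher in mutant tamoxifen than in control tamoxifen (1.13, limma adjusted p = 0.0158). Mutant NaCl differed from control tamoxifen by a like amount, without a call (1.18, adjusted p = 0.51). Between mutant tamoxifen and mutant NaCl the Cxcl13 difference was -0.05 (adjusted p = 0.912). The Cxcl13 call against control tamoxifen was lost without mutant tamoxifen replicate 3 or control tamoxifen replicate 2, at differences of 0.95 to 1.20 (adjusted p = 0.059 to 0.12). Tnf (0.59, 0.000882), Ltbr (0.31, 0.00396) and Il7 (0.44, 0.00177) rose against control tamoxifen, and against mutant NaCl as well (adjusted p = 0.000415, 0.00787 and 0.0267). Tnf, Ltbr and Il7 had correlations of 0.05 to 0.11 with the B cell genes. In the list 5 of 14 were called against control tamoxifen, where 24.6% of all genes were, Tnfsf11 being the one that fell. Against mutant NaCl 3 of 14 were called, where 23.2% of all genes were, a share close to that of all genes. The Il7 call against mutant NaCl was lost with no sex term, over female arrays alone and without mutant tamoxifen replicate 2 or 3 or mutant NaCl replicate 1 or 3 or 4, at differences of 0.18 to 0.22 (adjusted p = 0.0561 to 0.106). The Il7 call against control tamoxifen was lost over female arrays alone, at a difference of 0.33 (adjusted p = 0.0912). The Ltbr call against mutant NaCl was lost over female arrays alone, at a difference of 0.21 (adjusted p = 0.0623). The Ltbr call against control tamoxifen was lost over female arrays alone, at a difference of 0.32 (adjusted p = 0.0704). The Tnfsf11 call against control tamoxifen was lost in 14 of 21 other settings, at differences of -0.33 to -0.21 (adjusted p = 0.0524 to 0.177).

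Of 8 homing receptor genes, 4 had a correlation over 0.8 (Ccr6, Ccr7, Gpr183 and Itgb7), and 0 passed in any comparison (limma). Of 10 germinal centre genes 5 did, and again 0 passed. Of all genes 23.2% were called in mutant tamoxifen against mutant NaCl and 24.6% against control tamoxifen. Between mutant NaCl and control tamoxifen 0% were called, so there the lists showed what all genes showed. Rgs13, a regulator of G protein signals in germinal centre B cells, read 6.18, 6.66, 5.93 and 5.77 in mutant tamoxifen, 7.92, 6.72, 6.58 and 5.57 in mutant NaCl, and 5.34, 5.91 and 6.59 in control tamoxifen. It was highest in mutant NaCl replicate 1, 2.29-fold above the next array, and it was chosen after its values were seen.

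Plasma cell genes followed the 9 genes less closely over all arrays. Of 12 measured, 0 had a correlation over 0.8 with the members' mean (range -0.02 to 0.73). After group means were taken off, 3 did (Jchain 0.88, Creld2 0.81 and Irf4 0.80), Prdm1 was at 0.77, and only Sdc1 (-0.27) was below 0.6. Jchain, which joins IgA and IgM into polymers, read 12.71, 12.66, 12.62 and 12.60 in mutant tamoxifen, 12.73, 12.56, 12.52 and 12.11 in mutant NaCl, and 12.56, 12.27 and 12.84 in control tamoxifen, and mutant NaCl replicate 1 did not stand out in it. Jchain did not pass in any comparison (limma adjusted p = 0.427 against mutant NaCl and 0.77 against control tamoxifen). Prdm1, the factor that drives plasma cell differentiation, read 9.10, 8.89, 9.06 and 9.04 in mutant tamoxifen, 8.47, 8.43, 8.33 and 8.09 in mutant NaCl, and 8.13, 8.19 and 8.33 in control tamoxifen. All 4 mutant tamoxifen arrays were above all others, where 14.2% of all genes were higher without overlap against mutant NaCl and 17.3% against control tamoxifen. Prdm1 rose against mutant NaCl (0.69, limma adjusted p = 0.000394) and against control tamoxifen (0.77, 0.000577). Sdc1, Fkbp11 and Creld2 rose in both as well, so 4 of 12 were called in each, where 12.5% and 12.9% of all genes were called higher. The Sdc1 call against control tamoxifen was lost over female arrays alone, at a difference of 0.41 (adjusted p = 0.0733). The Fkbp11 call against control tamoxifen was lost over female arrays alone, at a difference of 0.40 (adjusted p = 0.0524). The Creld2 call against control tamoxifen was lost over female arrays alone and without mutant tamoxifen replicate 3 or control tamoxifen replicate 1 or 2, at differences of 0.31 to 0.47 (adjusted p = 0.0575 to 0.173). Prdm1 and Sdc1 are also made by epithelial cells, and Creld2 by cells that secrete much protein. The 3 immunoglobulin constant region genes measured, Ighm, Igha and Ighg3, had correlations of 0.30 to 0.58 with the members. Of these 0 passed in any of the 3 comparisons, where 23.2%, 24.6% and 0% of all genes did.

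T cell markers moved with the B cell genes in part, with correlations of 0.22 (Cd4) to 0.96 with the members' mean. Of 19 measured, 10 had a correlation over 0.8, and the list's mean level was 6.82 to 7.07 in mutant tamoxifen, 6.82 to 7.39 in mutant NaCl and 6.79 to 7.08 in control tamoxifen. The part of T cells in the variation of the 9 genes was not tested. Its range was narrower than that of the B cell genes, but mutant NaCl replicate 1 was again highest. Cd3e, a chain of the T cell receptor complex, read 8.13, 8.08, 8.19 and 7.88 in mutant tamoxifen, 9.06, 8.66, 8.38 and 8.11 in mutant NaCl, and 7.93, 7.80 and 8.34 in control tamoxifen. Against mutant NaCl, Themis (-0.21, limma adjusted p = 0.0243) and Bcl11b (-0.24, 0.0215) were lower in mutant tamoxifen. That is 2 of 19 where 10.7% of all genes were called lower, so the list's share was that of all genes. Neither Themis (-0.0038, adjusted p = 0.973) nor Bcl11b (-0.21, 0.062) was called against control tamoxifen. Against control tamoxifen the co-stimulatory receptor gene Icos rose (0.58, 0.0417), 1 of 19 where 12.9% of all genes were called higher. The Themis call against mutant NaCl was lost over female arrays alone and without mutant tamoxifen replicate 3 or 4 or mutant NaCl replicate 1 or 3, at differences of -0.21 to -0.17 (adjusted p = 0.0583 to 0.0816). The Bcl11b call against mutant NaCl was lost with no sex term, over female arrays alone and without mutant tamoxifen replicate 3 or 4 or mutant NaCl replicate 1 or 3, at differences of -0.25 to -0.20 (adjusted p = 0.0534 to 0.117). The Icos call against control tamoxifen was lost in 10 of 21 other settings, at differences of 0.43 to 0.63 (adjusted p = 0.0551 to 0.224).

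Neutrophil and smooth muscle markers did not rise with the 9 genes over the arrays. Summed levels of the 9 neutrophil markers measured were 67.88 to 73.23 in mutant tamoxifen, 62.25 to 63.06 in mutant NaCl and 61.94 to 64.01 in control tamoxifen, and their correlations with the B cell genes were -0.15 to 0.15. Smooth muscle markers, 10 of 10 measured, summed to 115.49 to 116.82, 119.78 to 122.62 and 121.21 to 122.45 in the same groups, with correlations of -0.51 to 0.02. After group means were taken off, 9 of these 10 had correlations of -0.78 to -0.59, and Pcp4 had -0.25. In mutant NaCl the mean muscle level was 11.98, 12.10, 12.15 and 12.26, lowest in replicate 1 and highest in replicate 4, the reverse of the 9 genes. It was 11.67, 11.55, 11.59 and 11.68 in mutant tamoxifen, where replicate 1 was highest for the 9 genes but not lowest for muscle. Control tamoxifen replicates 2 and 3 were both at 12.12 for muscle, with the 9 genes at 6.83 and 7.69. The part of tissue make-up in this was not tested. Of 16 macrophage and dendritic cell genes 1 (Flt3, 0.82) had a correlation over 0.8 over all arrays. After group means were taken off 0 of the 16 did, with Itgax at 0.799, Flt3 at 0.754 and C1qa at 0.694, and the correlation of the list's mean level with that of the 9 genes was 0.41 over all arrays. Of 8 epithelial and 9 endothelial and stromal genes 0 did. Of 8 genes of M cells and the epithelium over follicles 2 did, Spib and Ccl20, which are also in other lists, and the list's mean level had a correlation of 0.77 with that of the 9 genes. The part of these cells in the variation of the 9 genes was not tested.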

How the data were processed

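RNA of 11 rectal mucosa samples was measured on Affymetrix Mouse Gene 1.0 ST arrays, 1 per mouse. The authors deposited 1 log2 value per transcript cluster and array, made per the labels with RMA, which corrects background, quantile-normalises and summarises probes. The submitters' processing notes name Expression Console (version 1.1, after Command Console 2.0, per the series design text) and Partek, whose role is not given. Scanner files and a genome build were not used here. RMA levels are relative within an array, and the number of arrays limits the precision.

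Of 35556 transcript clusters, 21797 had 1 gene symbol in the platform annotation, 1613 had several and 12146 were not listed. Symbols were matched to RefSeq (GRCm38.p6) by gene ID (21698) or accession (5), and 94 had no match and kept theirs. The cluster with the highest mean stood for each of 1001 genes with several, which left 19944 genes. No filter on dim genes was applied.

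All arrays were fitted in 1 linear model with limma 3.58.1 (R 4.3.3), with terms for group and for sex, which is uneven over the groups, and variances moderated with a trend. P-values are two-sided and were adjusted across the 19944 genes by the Benjamini-Hochberg method, and 0.05 was the threshold. P-values set a difference against the spread between these mice, which is 1 value per gene for all 3 groups. The wide spread of the members in mutant NaCl thus also enters the comparison of mutant tamoxifen with control tamoxifen. The fit was tested on simulated data, with genes drawn independently and the same spread in all groups. The members move together and spread more in mutant NaCl, so that test does not cover their case. Correlations are descriptions. Named genes were the 9 members, Itga6, the 12 genes most correlated with the members' mean, and up to 4 genes with the smallest p per list and comparison; list genes named for their correlation, and Jchain, Cd3e and Tnfrsf13c, were chosen after their values were seen. The members and lists were chosen with earlier results of these data known. Replicate numbers follow the order of deposit and pair nothing. Alternatives were leaving out the sex term or the males, a fit of each pair of groups by itself, 2 filters on dim genes, 2 rescalings, 2 other variance settings, the mean of a gene's clusters, and leaving out each array.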

Additional observations from a re-analysis of the deposited data

Results flagged for a closer look

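In each group of 4 arrays, the highest and the lowest value of the 9 B cell genes, the 12 most similar genes, Itga6 and the mean levels of the lists were set against the others of the group. Of 74 such comparisons 4 had a value that stood apart by Dixon's criterion for 4 values (95% level), and chance alone gives about 1 in 20. The comparisons are not independent, since the 12 genes were chosen for following the members' mean, so flags of 1 array in several of them are not separate observations. Mutant tamoxifen replicate 4 read 7.68 for Ikzf3, with the other arrays of its group at 8.13 to 8.21. The same array read 7.02 for Siglecg, with the others at 7.17 to 7.20, and 7.99 for Ppp1r16b, with the others at 8.16 to 8.18. Mutant NaCl replicate 4 had a mean level of 10.21 over the 3 immunoglobulin constant region genes, with the others at 11.09 to 11.26. No value of the 9 B cell genes themselves stood apart in this sense: in mutant NaCl the arrays were spread out on both sides.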

How the results depend on the processing

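Each count of members called, 0 higher and 0 lower in all 3 comparisons, was recomputed under 21 alternatives. It became 1 in 2 of them: Cxcr5 passed as higher in mutant tamoxifen than in control tamoxifen with only the arrays of those groups (1 member), and Blk as lower in mutant tamoxifen than in mutant NaCl without mutant NaCl replicate 4 (leaving out 1 array gave 0 to 1 called lower there). Of 546 recomputed member differences 525 kept their sign and side of the threshold, 2 passed and 19 changed sign, all 19 when 1 array was left out and none past the threshold. For mutant tamoxifen minus mutant NaCl, the leave-one-out range was -0.84 to 0.19 for Cd79a, -0.86 to 0.025 for Cd79b, -0.76 to 0.089 for Cr2 and -0.38 to 0.029 for Cxcr5. For mutant tamoxifen minus control tamoxifen, the leave-one-out range was -0.54 to 0.60 for Cd79a, -0.40 to 0.76 for Cd79b, -0.16 to 1.53 for Ms4a1, -0.37 to 0.37 for Cd22, -0.28 to 0.58 for Cr2, -0.29 to 0.38 for Fcer2a, -0.16 to 0.15 for Blk and -0.19 to 0.44 for Pax5. For mutant NaCl minus control tamoxifen, the leave-one-out range was -0.32 to 1.42 for Cd79a and -0.071 to 1.55 for Cd79b. The arrays whose omission changed signs were mutant NaCl replicate 1, control tamoxifen replicate 2 and mutant tamoxifen replicates 1 and 3; the cause was not tested. Median correlation among members was 0.89 to 0.96 over 15 settings, lowest without mutant NaCl replicate 1. With the lowest 25 or 50 percent of genes left out, 1 and 6 members were not tested. No paired analysis was possible because replicate numbers only name arrays. Female arrays alone leave 1 control mouse, and males are too few to compare.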

Other observations

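Genes of the epithelium and vessels at follicles gave further values for single arrays, chosen after they were seen. Gp2, a receptor on M cells, which take up microbes over follicles, read 5.38, 5.52, 5.52 and 5.35 in mutant tamoxifen, 6.15, 5.48, 5.51 and 5.47 in mutant NaCl, and 5.43, 5.44 and 5.36 in control tamoxifen. It was raised in mutant NaCl replicate 1 alone, while the other 10 arrays lay between 5.35 and 5.52. Other genes of the M cell list differed: Marcksl1, Pglyrp1 and Tnfaip2 had correlations of 0.02, 0.33 and -0.11 with the 9 genes. Marcksl1 and Pglyrp1 were called higher in mutant tamoxifen than in mutant NaCl, 2 of 8. Tnfaip2 joined them against control tamoxifen, 3 of 8, where 12.9% of all genes were called higher. The Pglyrp1 and Tnfaip2 calls against control tamoxifen were lost without mutant tamoxifen replicate 3. Glycam1, a ligand for lymphocyte homing on high endothelial venules, read 6.99, 6.60, 6.44 and 6.38 in mutant tamoxifen, 8.97, 6.87, 7.38 and 5.998 in mutant NaCl, and 5.98, 6.23 and 6.46 in control tamoxifen, with mutant NaCl replicate 1 3.00-fold above the next array. Gcsam, which is expressed in germinal centre B cells, read 6.45, 6.43, 6.55 and 6.42 in mutant tamoxifen, 7.86, 6.58, 6.98 and 6.46 in mutant NaCl, and 6.20, 6.39 and 6.59 in control tamoxifen, and again mutant NaCl replicate 1 was highest. Mybl1, a transcription factor of germinal centre B cells, read 7.20, 7.30, 7.03 and 7.12 in mutant tamoxifen, 8.34, 7.19, 7.54 and 7.01 in mutant NaCl, and 6.64, 6.52 and 6.97 in control tamoxifen, in the same order at the top. Madcam1, in the same list as Glycam1, was instead highest in mutant tamoxifen replicate 1, at 8.20 against 7.94 in mutant NaCl replicate 1. None of Gp2, Glycam1, Gcsam and Mybl1 passed the test in any of the 3 comparisons (limma), where 23.2%, 24.6% and 0% of all genes did. Those 4 genes were picked for 1 high array, which widens the spread within its group, so this is not a separate result.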
